A study of Mus musculus with 50 samples.

Results

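The genes described are 6 members of the RAS, RAF and ERK kinase cascade: Hras and Nras, which encode small GTPases at the plasma membrane, Braf, which encodes the kinase that active RAS recruits, Map2k1 and Map2k2, which encode the MEK1 and MEK2 kinases, and Mapk3, which encodes ERK1. They were picked by name, with no threshold on a measured value, and each name matched 1 row, giving 6 of the 37701 genes in the table. Expression was measured by RNA-seq in 50 mammary gland tumors of female p53R270H/+WAPCre mice, 10 tumors per treatment. In these mice a mutant p53 allele, heterozygous in all 5 groups, is switched on by Cre under the milk-protein promoter WAP, so that the mutation is restricted to mammary epithelium. From an age of 8 weeks the animals were injected subcutaneously every other day with vehicle, insulin, the insulin analogues glargine or X10, or IGF1, the ligand of the IGF1 receptor (IGF1R), until a tumor formed. The amounts injected are not given in the sources used here. The study's text describes them as equal in their effect on glycemia but not in mitogenic potential. Tumors were taken at 1 cm3, 24 h after the last injection, and the authors kept tumors of an EMT-like type with a latency close to the median of their group. The vehicle tumors are titled untreated in the labels, and a tumor is named here by its title, whose number was taken as that of its mouse.

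Receptor tyrosine kinases such as the IGF1R pass their signal through adaptors and exchange factors to RAS, which in its GTP-bound form brings RAF kinases to the membrane. RAF phosphorylates MEK, MEK phosphorylates ERK, and ERK enters the nucleus and switches on growth genes together with its own inhibitors, the DUSP phosphatases and the Sprouty proteins. The cascade runs mainly on phosphorylation, which RNA-seq does not measure, and the values below are transcript levels only. In bulk tumor RNA, fewer cells of a type and less RNA per cell cannot be told apart.

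Library sizes lay between 26.6 and 51.9 M reads, with group medians of 44.0 M (vehicle), 39.7 M (insulin), 41.0 M (glargine), 35.4 M (X10) and 42.5 M (IGF1). Each of the 6 genes had at least 512 reads in each tumor, so that counting error is small beside the spread between tumors. The tumors were rich in mesenchymal transcripts. Of 6 mesenchymal markers, Vim lay between 1094 and 6102 RPKM with a median of 3812. The other 5 had medians between 29.5 (Pdgfrb) and 8435 RPKM (Col1a1). Of 7 epithelial markers, Krt8 and Krt18 had medians of 173.9 and 54.6 RPKM, and the other 5 had medians between 0.813 (Krt5, at 0 in 2 tumors) and 9.10 RPKM (Krt14). The summed level of the 7 was 5924 RPKM in vehicle tumor Untreated_174 and 4185 RPKM in X10 tumor X10_105, against a median of 296 over all tumors. These 2 tumors stand apart from the rest, and several results that may rest on them are also given without 1 or both. The limma fits left out single tumors only.

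The first 250 bases before the start site are shown for 3 genes, because the levels of Hras and Map2k2 rose and fell together across tumors and that of Braf ran against both. The sequences are from RefSeq (GRCm38.p6), 5′ to 3′ on the strand of the gene. They are Hras, chr7:141194005-141194254 on the minus strand, Map2k2, chr10:81105665-81105914 on the plus strand, and Braf, chr6:39725464-39725713 on the minus strand. Capitals mark the GC box (GGGCGG, or CCGCCC on the other strand) and the cAMP response element (TGACGTCA, the same on both strands), which share no bases here.
Hras: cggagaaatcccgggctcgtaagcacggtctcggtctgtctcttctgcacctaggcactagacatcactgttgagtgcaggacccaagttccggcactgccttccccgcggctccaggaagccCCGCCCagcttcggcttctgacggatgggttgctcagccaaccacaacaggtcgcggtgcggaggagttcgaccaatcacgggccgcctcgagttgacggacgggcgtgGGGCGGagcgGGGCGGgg
Map2k2: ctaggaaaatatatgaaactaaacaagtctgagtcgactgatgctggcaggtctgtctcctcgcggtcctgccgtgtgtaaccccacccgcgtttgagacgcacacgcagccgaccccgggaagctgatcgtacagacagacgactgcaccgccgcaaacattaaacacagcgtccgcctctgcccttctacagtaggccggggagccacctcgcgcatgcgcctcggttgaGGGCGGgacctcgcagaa
Braf: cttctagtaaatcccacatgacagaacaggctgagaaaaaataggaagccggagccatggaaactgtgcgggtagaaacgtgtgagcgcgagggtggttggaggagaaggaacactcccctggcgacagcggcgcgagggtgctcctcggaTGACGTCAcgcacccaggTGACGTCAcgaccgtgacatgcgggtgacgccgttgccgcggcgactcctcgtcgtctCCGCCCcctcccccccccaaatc

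The Hras window held 3 GC boxes and 65.6% GC, the Map2k2 window 1 GC box and 59.6% GC, and the Braf window 1 GC box, 2 cAMP response elements and 62% GC. Of the 32851 mouse promoters of the same length, 32.7% held a GC box and 1.55% a cAMP response element, and the median GC content was 52.4%. Nras (2 GC boxes, 48.4% GC) and Map2k1 (4 GC boxes, 68.4% GC) held no cAMP response element. Promoter sequences were found for 5 of the 6 genes, all but Mapk3. A match of letters is a description and not a binding site.

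In GRCm38 (GENCODE M21) Hras (ENSMUSG00000025499) lies at chr7:141189105-141194005 on the minus strand and Mapk3 (ENSMUSG00000063065) on the same chromosome at chr7:126759601-126765819 on the plus strand. Nras (ENSMUSG00000027852) lies at chr3:103058285-103067914 on the plus strand, Map2k1 (ENSMUSG00000004936) at chr9:64185770-64253631 on the minus strand and Map2k2 (ENSMUSG00000035027) at chr10:81105915-81133975 on the plus strand. Braf (ENSMUSG00000002413) lies at chr6:39603237-39725463 on the minus strand. Map2k1 overlaps Uchl4, Gm24106 and Gm48855, all annotated on the other strand, and Braf overlaps Ndufb2 on the other strand and the pseudogene Fth-ps2 on its own, so that reads of the shared stretches are uncertain.

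At the level of RAS, Hras in vehicle tumors lay between 41.6 and 111.5 RPKM with a median of 50.3. The insulin tumors lay between 34.2 and 57.0 RPKM (median 45.6), the glargine tumors between 31.0 and 69.3 (median 45.7), the X10 tumors between 31.6 and 83.3 (median 40.6) and the IGF1 tumors between 33.6 and 91.6 (median 51.8). The groups overlapped throughout. Group means ran from 44.3 ± 15.0 RPKM (SD, n = 10) with X10 to 58.7 ± 20.7 RPKM (SD, n = 10) with vehicle, in the order X10, insulin, glargine, IGF1, vehicle, and no neighbours in this order differed by more than the smaller of their SDs. Without Untreated_174 the vehicle mean was 52.8 RPKM, below that of IGF1 (54.3 RPKM), and the medians also put IGF1 (51.8 RPKM) above vehicle (50.3 RPKM). The X10 tumors were lower than the vehicle tumors by the largest difference among the 42 tests of the 6 genes, with a log2 fold change of -0.40 (SE 0.16, 95% interval -0.72 to -0.07) in limma, an unadjusted p of 0.0189 and a Benjamini-Hochberg adjusted p of 0.361. Without vehicle tumor Untreated_174 the log2 fold change was -0.29 and without X10 tumor X10_105 it was -0.50, with adjusted p-values of 0.612 and 0.146 in limma. These 2 tumors, each the highest of its group in Hras, were also the highest of all 50 in the 7 epithelial markers, whose sum ran from 12.6 to 5924 RPKM in vehicle tumors and from 83.5 to 4185 RPKM in X10 tumors. The part of epithelial cells in the Hras level was not tested.

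For Nras the vehicle group was at the other end of the order. The vehicle tumors lay between 32.7 and 60.8 RPKM (median 46.0), the insulin tumors between 31.9 and 65.7 (median 53.8), the glargine tumors between 35.0 and 57.0 (median 45.0), the X10 tumors between 32.8 and 67.9 (median 51.8) and the IGF1 tumors between 27.7 and 77.3 (median 61.9). IGF1 tumors held both the lowest and the highest Nras value of all 50 tumors. Means rose from 45.7 RPKM with vehicle and with glargine through 53.1 with X10 and 53.2 with insulin to 57.2 with IGF1, and only the step from glargine to X10 was larger than the smaller SD. The 20 X10 and IGF1 tumors were higher than the other 30 by a log2 difference of 0.17 (SE 0.10, 95% interval -0.03 to 0.36, limma adjusted p = 0.571), and IGF1 alone differed from vehicle by 0.28 (SE 0.15, 95% interval -0.02 to 0.58, limma adjusted p = 0.624).

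The balance of both RAS genes was also compared within each tumor, which removes what scales both genes alike. The ratio of Hras RPKM to Nras RPKM in vehicle tumors lay between 0.779 and 2.12 with a median of 1.23, and in insulin tumors between 0.676 and 1.24 with a median of 0.819. In the X10 tumors it lay between 0.542 and 2.54 (median 0.720). The insulin tumors had a lower log2 ratio than the vehicle tumors, -0.22 ± 0.27 (SD, n = 10) against 0.33 ± 0.45 (SD, n = 10), a difference of -0.55 with p = 0.00417 in a two-sided permutation test and 0.0417 after adjustment over 10 ratio tests. As a difference in medians it was -0.59 with an adjusted permutation p of 0.0605, so that the call was lost. Without vehicle tumor Untreated_174 the difference in means was -0.46 with an adjusted permutation p of 0.077, and the call was lost as well. Without Untreated_174 and X10_105 it was again -0.46, with the same unadjusted permutation p of 0.0077 and an adjusted p of 0.0385, since the other tests of the family also changed. In the same comparison limma called 0 of 7 epithelial and 0 of 6 leukocyte markers, and 0% of the 16733 tested genes, of which 1865 had an unadjusted p under 0.05. All 7 epithelial markers were lower (median log2 fold change -0.73, 2 with an unadjusted p under 0.05). All 6 leukocyte markers were higher (median 0.58, 3 with an unadjusted p under 0.05). The summed epithelial level ran from 12.6 to 5924 RPKM with vehicle and from 81.0 to 599 RPKM with insulin, and the summed leukocyte level from 134 to 505 and from 212 to 489 RPKM. The part of these cells in the ratio was not tested. For X10 the difference from vehicle was -0.61 (permutation p = 0.0212, adjusted 0.106) with all tumors and -0.80 (permutation p = 0.00025, adjusted 0.0025) without X10 tumor X10_105. Without Untreated_174 it was -0.53 (permutation p = 0.0412, adjusted 0.206), and without both tumors -0.71 (permutation p = 0.00056, adjusted 0.0056). These tumors were left out after their values had been seen. Glargine (-0.31, adjusted permutation p = 0.326) and IGF1 (-0.39, adjusted permutation p = 0.372) were not past the threshold.

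Braf was the lowest of the 6 genes on the RPKM scale and the most variable, with a coefficient of variation higher than that of 85.1% of the 10904 genes with a mean of at least 5 RPKM. The vehicle tumors lay between 5.62 and 22.0 RPKM (median 12.0), the insulin tumors between 9.98 and 33.3 (median 11.8), the glargine tumors between 6.81 and 48.9 (median 15.0), the X10 tumors between 9.52 and 17.9 (median 13.6) and the IGF1 tumors between 6.06 and 16.6 (median 10.2). The lowest Braf levels of all tumors were in Untreated_174 (5.62 RPKM) and IGF1_160 (6.06 RPKM), the 2 tumors with the highest Hras levels. Glargine tumor glargine_62, at 48.9 RPKM, and insulin tumor insulin_21, at 33.3 RPKM, stood far above the other tumors of their groups, of which the highest held 18.6 and 16.9 RPKM. The mean was highest with glargine, 17.1 ± 12.0 RPKM (SD, n = 10), and lowest with IGF1, 11.2 ± 3.02 RPKM (SD, n = 10). The log2 fold change of glargine against vehicle was 0.32 (SE 0.23, limma adjusted p = 0.841), and without glargine tumor glargine_62 it was 0.13. For insulin against vehicle it was 0.20 (SE 0.23, limma adjusted p = 0.786), and 0.06 without insulin tumor insulin_21.

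The MEK genes had the highest levels on the RPKM scale, and Map2k1 was the least variable of the 6 genes, with a coefficient of variation of 19.9% over all tumors. Map2k1 lay between 87.8 and 137 RPKM in vehicle tumors (median 98.8), between 69.96 and 171.2 in insulin tumors (median 124.3), between 84.2 and 142 in glargine tumors (median 112), between 82.9 and 150 in X10 tumors (median 113.4) and between 85.5 and 157 in IGF1 tumors (median 116.3). Its group means differed by at most 1.12 times, from 110 ± 18.8 RPKM (SD, n = 10) with vehicle to 123 ± 32.9 RPKM (SD, n = 10) with insulin. Map2k2 lay between 99.1 and 266 RPKM in vehicle tumors (median 126), between 108 and 154 in insulin tumors (median 124.1), between 102 and 164 in glargine tumors (median 117), between 89.0 and 148 in X10 tumors (median 125) and between 108 and 219 in IGF1 tumors (median 139). The highest vehicle value was again that of Untreated_174. Group means of Map2k2 ran from 121 ± 21.2 RPKM (SD, n = 10) with X10 to 150 ± 37.9 RPKM (SD, n = 10) with IGF1, with all neighbours in the order within the smaller SD. Without Untreated_174 the vehicle mean of Map2k2 was 125.04 instead of 139.1 RPKM, below insulin (127.0) and glargine (126.2). The ratio of Map2k1 to Map2k2 had group medians between 0.792 (IGF1) and 1.01 (insulin), and none of its 5 comparisons passed the permutation test, with adjusted p-values between 0.673 and 0.846.

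At the end of the cascade, Mapk3 lay between 51.2 and 152 RPKM in vehicle tumors (median 87.8), between 66.6 and 118.1 in insulin tumors (median 86.3), between 57.3 and 133 in glargine tumors (median 86.2), between 58.4 and 103 in X10 tumors (median 84.6) and between 69.3 and 157.5 in IGF1 tumors (median 90.7). The group medians were close together, while the highest vehicle tumor held 2.98 times the level of the lowest. The means ran from 79.9 ± 15.3 RPKM (SD, n = 10) with X10 to 97.5 ± 29.3 RPKM (SD, n = 10) with IGF1.

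**Figure D1:**
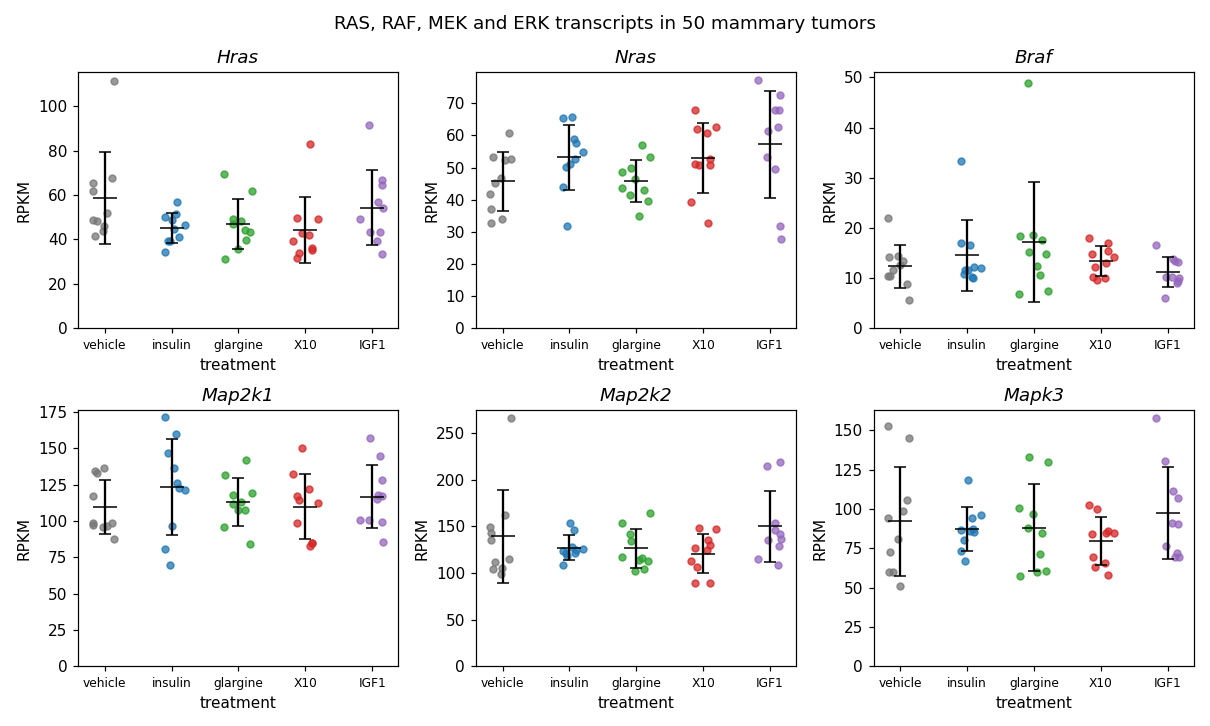
RPKM of the 6 genes (y axes) in each tumor, by treatment (x axes), with points for tumors and bars for the mean and SD of 10 tumors. The groups overlap in all 6 panels, with Hras and Map2k2 high in vehicle tumor Untreated_174 and Braf high in glargine tumor glargine_62 at 48.9 RPKM.

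None of the 6 genes passed the limma test in any comparison of treatments. Against vehicle, 0 of 6 were called with insulin and with glargine, where 0% of the 16733 tested genes were called (1865 and 1043 genes had an unadjusted p under 0.05, none of them among the 6). With X10, 0 of 6 were called against a background of 0.0657% of tested genes, and Hras was the 1 gene of the 6 with an unadjusted p under 0.05. With IGF1 the count was 0 of 6 against 0.00598%, and for X10 and IGF1 together against the other 3 groups it was 0 of 6 against 0.155%. X10 against insulin gave 0 of 6 against 0.102%, glargine against insulin 0 of 6 against 0% (663 genes with an unadjusted p under 0.05), and the moderated F test over the 5 groups 0 of 6 against 0.102%. limma voom on reads recovered from the RPKM values also called 0 of 6 in each comparison, with Hras in X10 against vehicle the 1 unadjusted p under 0.05. With so few genes called anywhere, the counts do not set the 6 genes apart from other genes. The 95% intervals allow changes of some size. Against vehicle, those of Braf were the widest, with glargine from -0.14 to 0.78 on the log2 scale, and for Map2k1 with X10 the interval ran from -0.27 to 0.26.

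**Figure D2:**
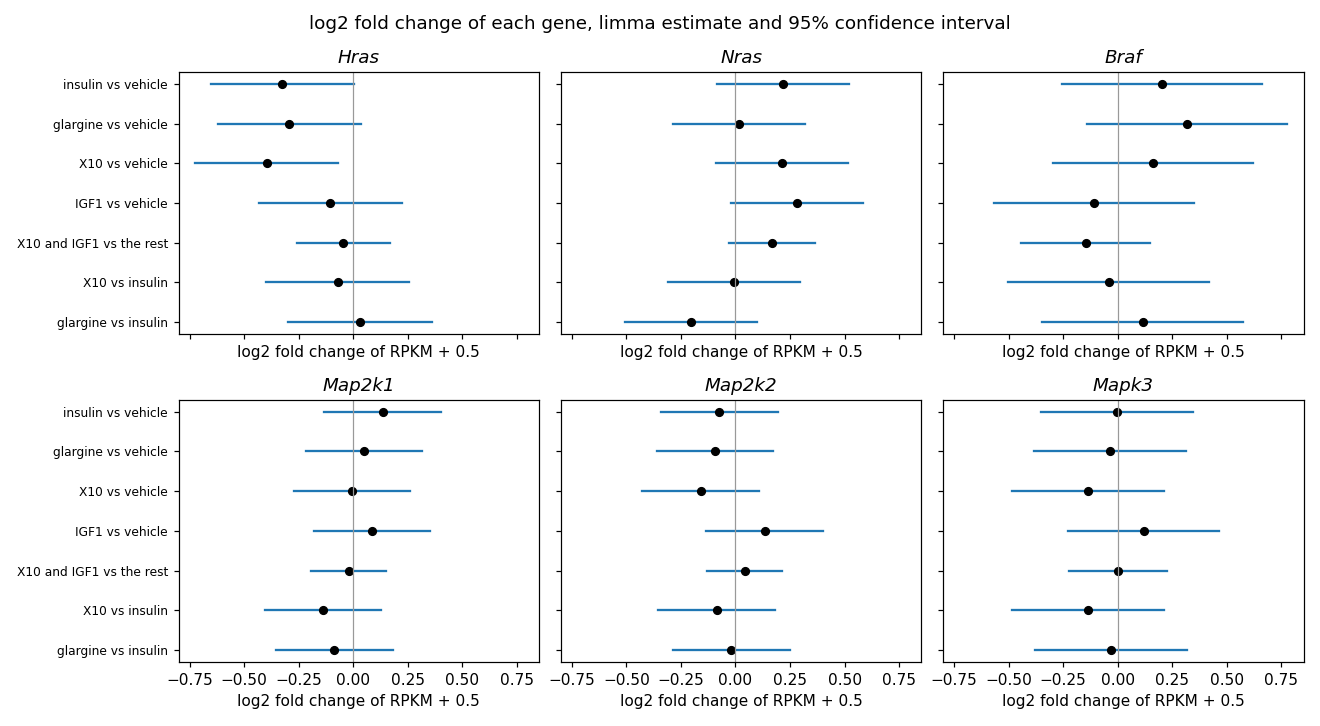
log2 fold change of RPKM + 0.5 (x axes) of each gene in the 7 comparisons (y axes), with dots for the limma estimate and lines for its 95% interval. All intervals but that of Hras in X10 against vehicle (-0.72 to -0.07) cover 0.

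The order of the 6 genes by level depended on the gene length used. On the deposited scale Map2k2 had the highest mean (133 RPKM), followed by Map2k1 (114.5), Mapk3 (89.0), Nras (51.0), Hras (49.9) and Braf (13.7). The length that the deposited values were divided by, as recovered from their steps, was 766 bp for Map2k1, 917 bp for Map2k2, 1199 bp for Hras and 2253 bp for Braf. For these 4 genes it equals the median length of the annotated transcripts in GENCODE M21, which counts short partial transcripts, and their longest coding transcripts are 2436, 2405, 2828 and 9728 bp long. For Nras it was 3082.5 bp and for Mapk3 1267 bp, which are not the medians of their annotated transcripts (831 and 823 bp) and are less certain, against 4470 and 1800 bp for the longest coding transcript. Divided by the longest coding transcript instead, Mapk3 came first (62.7 RPKM), before Map2k2 (50.6), Map2k1 (36.0), Nras (35.2), Hras (21.2) and Braf (3.17). Divided by the union of exons, the order was Mapk3 (50.0), Nras (29.5), Map2k1 (25.9), Map2k2 (21.5), Hras (16.0) and Braf (2.23). Braf was last and Hras next to last on all 3 scales, whereas the place of the MEK genes against Mapk3 and Nras changed. A comparison of the same gene between tumors is not affected by its length.

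Across the 50 tumors the genes did not vary as a block. Of the 15 pairs, 5 passed a permutation test of Pearson's r of log2(RPKM + 0.5) after adjustment over the pairs. Hras and Map2k2 were the closest, with r = 0.71 and Spearman's rho = 0.61 (both permutation p = 1e-05, the smallest that 100000 resamples can give, adjusted 0.00015). Map2k2 and Mapk3 followed with r = 0.53 and rho = 0.52 (permutation p = 0.00012 for both, adjusted 0.0008 and 0.0009), and Hras and Mapk3 with r = 0.50 and rho = 0.47 (permutation p = 0.00025 and 0.00075, adjusted 0.000937 and 0.00281). Braf ran against Hras with r = -0.52 and rho = -0.49 (permutation p = 0.00016 and 0.00044, adjusted 0.0008 and 0.0022) and against Map2k2 with r = -0.44 and rho = -0.44 (permutation p = 0.00188 and 0.00165, adjusted 0.00564 and 0.00495). Within treatments, with group means removed, the same pairs gave r = 0.70, 0.50, 0.49, -0.50 and -0.40, and a sixth pair, Hras and Map2k1, also passed, with r = -0.34 and rho = -0.35 (permutation p = 0.0121 and 0.0158, adjusted 0.0303 and 0.043). Over all tumors that pair had r = -0.32 and rho = -0.31 (adjusted permutation p = 0.0637 and 0.0714). Without the 2 tumors farthest from the median of the first gene named in each test (Hras for its 3 pairs, Map2k2 with Mapk3, Braf with Map2k2), r was 0.56, 0.46, 0.38, -0.38 and -0.57 in the order above. With quantile normalization Braf and Map2k2 had r = -0.33 (adjusted permutation p = 0.0523), so that the call was lost. Without vehicle tumor Untreated_174 and X10 tumor X10_105 the same 5 pairs had r = 0.65, 0.47, 0.46, -0.48 and -0.35. All 5 stayed past the threshold there, with Braf and Map2k2 nearest to it (adjusted permutation p = 0.0441). The pair of RAS genes did not pass the test (Hras and Nras, r = -0.12, rho = -0.03, permutation p = 0.408 and 0.822, adjusted 0.471 and 0.881), nor did the pair of MEK genes (r = -0.12, rho = -0.14, permutation p = 0.407 and 0.322, adjusted 0.471 for both). None of the 6 passed a test of its relation to library size, with Pearson's r between -0.23 and 0.17 (smallest adjusted permutation p = 0.666), Spearman's rho between -0.24 and 0.18 (smallest adjusted permutation p = 0.519).

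Among the 3 genes with the highest Pearson r for each member over 50 tumors, 13 of 18 lay on the member's own chromosome. For Nras, on chromosome 3, these were Prpf38b (r = 0.80), Mettl14 (0.78) and Ube2d3 (0.77). For Map2k1, on chromosome 9, they were Pafah1b2 (0.71), Map4 (0.71) and Pdcd6ip (0.70). For Braf, on chromosome 6, they were the kinase gene Hipk2 (0.87), Luc7l2 (0.77) and Zfp800 (0.76), and for Map2k2, on chromosome 10, Abhd17a (0.87), Tmem259 (0.86) and 2310011J03Rik (0.85). Hras was followed by Mbd3 (0.81), Bola2 (0.80, on chromosome 7 as is Hras) and Cuta (0.80), and Mapk3 by Prmt2, Cd14 and Rrp1 (0.70, 0.70 and 0.69), none of them on chromosome 7. Of the 100 genes most like Map2k1, 86 lay on chromosome 9, which holds 5.53% of the genes with a mean of at least 5 RPKM, and 70 of these 86 lay more than 3 Mb from Map2k1. For Nras 75 of 100 lay on chromosome 3 (4.81% of genes), 64 of them more than 3 Mb away. For Map2k2 54 of 100 lay on chromosome 10 (4.45% of genes) but only 10 of these more than 3 Mb away. The counts were 30 of 100 for Hras (6.69% of genes on chromosome 7), 18 of 100 for Braf (5.02% on chromosome 6) and 16 of 100 for Mapk3 (6.69% on chromosome 7). For Mapk3 the commonest chromosome was chromosome 10, with 31 of 100.

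A value for the whole chromosome was therefore set beside each gene, as a description with no test, since the counts above had prompted it and most genes follow their own chromosome to some degree. In each tumor it is the median, over the genes of the chromosome more than 3 Mb from the member, of the log2 difference from the gene's own median, less the same median over all other chromosomes. Map2k1 followed the rest of chromosome 9 with r = 0.75 and rho = 0.75, and Nras followed chromosome 3 with r = 0.68 and rho = 0.69. Hras followed chromosome 7 with r = 0.62 and rho = 0.46. For these 3 genes their own chromosome had the highest r of 20 chromosomes, whereas it was at place 2 for Mapk3 (chromosome 10 had r = 0.42), at place 4 for Map2k2 (chromosome 7 had r = 0.56) and at place 6 for Braf (chromosome 2 had r = 0.34). Mapk3, on the same chromosome as Hras, had r = 0.36 and rho = 0.34, Map2k2 r = 0.30 and rho = 0.36 and Braf r = 0.20 and rho = 0.28. As background, 10799 genes had a median r of 0.32 with their own chromosome (82.6% above 0), and 98.2% of them were below Map2k1, 94.2% below Nras, 87.6% below Hras, 55.7% below Mapk3, 47.1% below Map2k2 and 36.0% below Braf. Within treatments the r of Map2k1, Nras and Hras were 0.75, 0.65 and 0.64, and without the 2 tumors farthest from the median of the chromosome value they were 0.78, 0.63 and 0.54. In that last setting Mapk3 had r = 0.28 and rho = 0.27. DNA copy number was not measured, and no cause was tested.

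**Figure D3:**
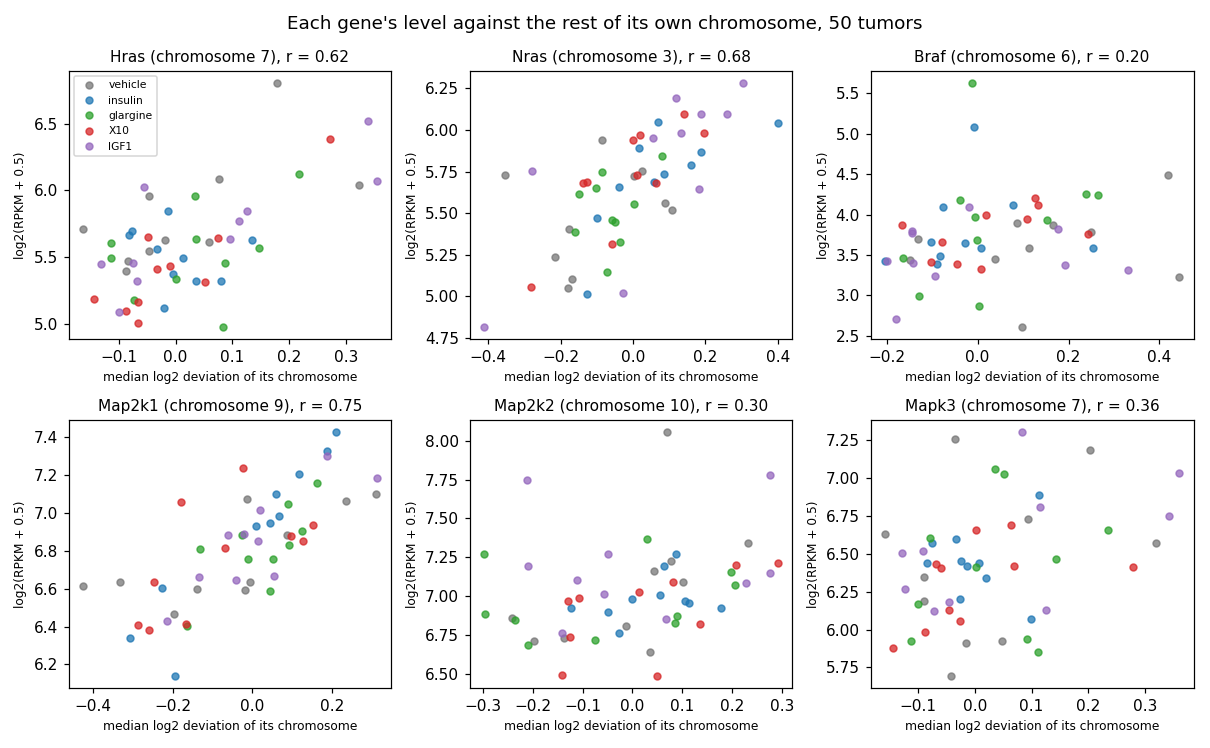
log2(RPKM + 0.5) of each gene (y axes) against the value of the rest of its own chromosome in log2 units (x axes), for the 50 tumors, coloured by treatment. Map2k1 (r = 0.75), Nras (r = 0.68) and Hras (r = 0.62) rise with their chromosomes, and the 2 high Braf tumors lie near a chromosome 6 value of 0.

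The high Braf level of glargine tumor glargine_62 was shared by its neighbours on 1 side. In glargine tumor glargine_62 it stood 1.95 log2 units above its median over all tumors of 12.3 RPKM. Of the 27 genes within 3 Mb on the side of lower coordinates, 18 were at least 1 log2 unit above their own medians and 16 had their highest level of all 50 tumors, with a median difference of 1.77. They included, named after their values were seen, Hipk2 at 30.3 RPKM against a median of 5.79, Luc7l2 at 150 against 37.4, Dennd2a at 116.1 against 17.0 and Parp12 at 71.8 against 17.2. On the other side Mrps33, 0.142 Mb from Braf, was also at its highest (83.5 against a median of 18.6 RPKM), and Agk, at 0.697 Mb, was not (4.22 against 4.94 RPKM). Of the 28 genes on that side 3 were at least 1 unit above, with a median of -0.24. In the same tumor 2.09% of all genes with a mean of at least 1 RPKM were at least 1 unit above their medians. The neighbours and Braf did not always go together. In glargine tumor glargine_73, 10 of the 27 genes on the lower side and 3 of the 28 on the other were at least 1 unit above their medians, the next highest count on the lower side after glargine_62, while Braf itself was only 0.57 above its median. In insulin tumor insulin_21 Braf was 1.41 log2 units above its median. Of its 55 neighbours 7 were at least 1 unit above, 5 on the lower side and 2 on the other, against 2.74% of all genes. Hipk2 (29.6 RPKM) and Dennd2a (75.9 RPKM) were among them. Tumors without a high Braf level also reached such counts. In X10_105 they were 3 and 17 and in Untreated_186 they were 4 and 15, with Braf differences from its median of 0.09 and -0.23. Of the genes that overlap Braf, Ndufb2 was 1.46 units above its median in glargine tumor glargine_62, and Fth-ps2, at 1.71 RPKM, was not above its median of 1.91.

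**Figure D4:**
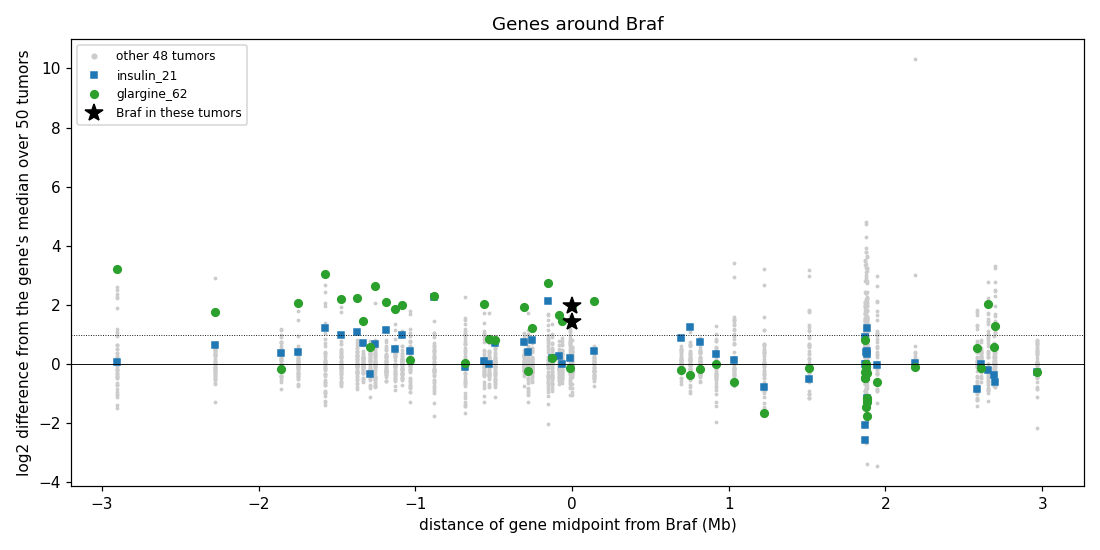
log2 difference from each gene's median over 50 tumors (y axis) for genes within 3 Mb of Braf (x axis, distance in Mb), with blue squares for insulin_21 and grey dots for the other 48 tumors. In glargine_62 (green) 18 of the 27 genes on the lower side and Mrps33 just beyond Braf lie above the dotted line at 1, as do 2 other genes of the 28 on the higher side.

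Among 4 related genes, Rras, Rras2 and Mras of the RAS family and the RAF kinase gene Araf, 0 of 4 were called in any of the 7 comparisons or the F test. At most 0.155% of all tested genes were called in any of these. Rras2 had the smallest p in X10 and IGF1 tumors against the other 3 groups, with a log2 fold change of 0.29 (SE 0.10, limma adjusted p = 0.249), and the median of the 4 was 0.05 beside -0.02 over all tested genes. Rras was highest in IGF1 tumor IGF1_160 (173 RPKM, median 69.5), the tumor with the second highest Hras level. Rras2, Mras and Araf had medians of 20.8, 53.2 and 34.8 RPKM, with no tumor 1 log2 unit above. Of the 6 genes, Nras, Map2k1 and Mapk3 had no such tumor, Hras and Map2k2 had 1 and Braf had 2. For comparison, 38.3% of the genes with a mean of at least 5 RPKM had at least 1 tumor that far above, and 10.1% had a tumor as far above as the highest Braf tumor.

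**Figure D5:**
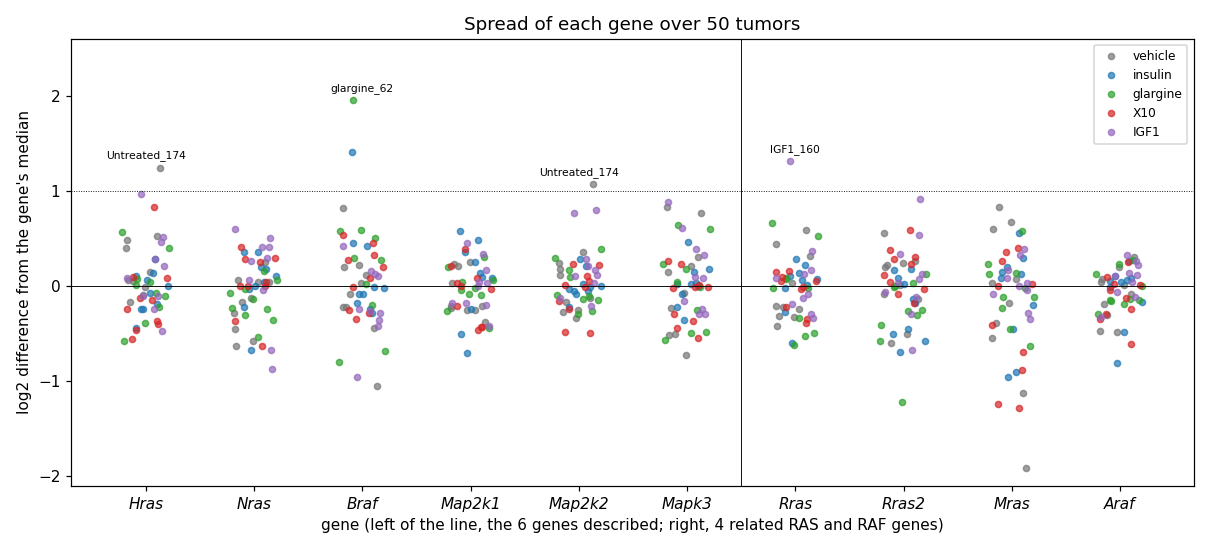
log2 difference of each tumor from the gene's median (y axis) for the 6 genes (left of the line) and 4 related RAS and RAF genes (right), with points for tumors coloured by treatment. The dotted line is 1 log2 unit, and labels name the highest tumor where it passes that line, such as glargine_62 for Braf at 1.95.

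No gene of the lists around the cascade passed the test between treatments. At most 0.155% of the 16733 tested genes were called in any comparison, so counts of 0 do not set these lists apart from other genes. In X10 and IGF1 tumors against the other 3 groups, 0 of the 12 RAS activators and adaptors were called, with a median log2 fold change of 0.03 beside -0.02 over all tested genes, and the smallest p was that of the exchange factor gene Rasgrf2 (0.51, SE 0.23, limma adjusted p = 0.413). Of the 9 genes for RAS GTPase-activating proteins 0 were called (median -0.06, smallest p for Rasal1 with -0.52, SE 0.28, limma adjusted p = 0.518). Of the 11 tested scaffolds and RAF regulators 0 were called (median 0.05), with the smallest p for the 14-3-3 protein gene Ywhaz, at 0.26 (SE 0.08, limma adjusted p = 0.117). Of the 8 ERK substrates and effector kinases 0 were called (median 0.01, smallest p for Mknk2 with -0.17, SE 0.08, limma adjusted p = 0.455). In insulin against vehicle 0 of these 8 were called, 7 were higher (median 0.30 beside 0.03 over all tested genes) and 3 had an unadjusted p under 0.05, as did 1865 of all 16733 genes. The smallest p there was that of the kinase gene Mknk1, named after its values were seen, at 0.50 (SE 0.14, limma adjusted p = 0.211). All 6 leukocyte markers were also higher in that comparison (median 0.58), and their part in these values was not tested. The ERK output genes, those that active ERK induces, gave 0 of 14 (median 0.09), and the smallest p was that of Spry1, an inhibitor of the pathway, with -0.61 (SE 0.22, limma adjusted p = 0.235). The count was also 0 for each list in the other 6 comparisons and the F test.

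The levels of the 6 genes were also set against a score of the ERK output, the mean z-score of the 14 output genes in a tumor. Nras rose with the score, with r = 0.44 and rho = 0.34 (permutation p = 0.00134 and 0.0153, adjusted 0.00804 and 0.0459), and so did Braf, with r = 0.37 and rho = 0.38 (permutation p = 0.00729 and 0.00629, adjusted 0.0219 and 0.0377). Hras fell with it by Pearson (r = -0.33, permutation p = 0.0191, adjusted 0.0381) but not by rank (rho = -0.14, adjusted permutation p = 0.503). Vehicle tumor Untreated_174, with the highest Hras level, had the score with rank 49 of 50, and without it the Hras relation had r = -0.23 (adjusted permutation p = 0.218). Braf without that tumor had r = 0.31 and rho = 0.34 (adjusted permutation p = 0.0808 and 0.0466), and Nras r = 0.47 and rho = 0.37 (adjusted permutation p = 0.00372 and 0.0466). Without Untreated_174 and X10_105, Braf had r = 0.32 and rho = 0.35 (adjusted permutation p = 0.0812 and 0.0617) and Nras r = 0.45 and rho = 0.33 (adjusted permutation p = 0.00756 and 0.0617), so that the Pearson relation of Nras alone was past the threshold. Without the 2 tumors with the most extreme scores, Nras had r = 0.40 and rho = 0.33 (adjusted permutation p = 0.0279 and 0.0817) and Braf r = 0.30 and rho = 0.32 (adjusted permutation p = 0.118 and 0.0817), so that by rank neither relation was past the threshold there. Within treatments Nras had r = 0.45 (adjusted permutation p = 0.0194) and Braf r = 0.36 (adjusted permutation p = 0.0268). Map2k1 (r = 0.17, rho = 0.15), Map2k2 (r = -0.29, rho = -0.11) and Mapk3 (r = 0.07, rho = 0.09) were not past the threshold, with adjusted permutation p-values between 0.0563 and 0.607 by Pearson. The labels give no sequencing batch or date, so no relation could be recomputed within batches.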

How the data were processed

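RNA from 50 mammary tumors (10 for each of 5 treatments) was sequenced after poly-A selection on an Ion Proton. The authors aligned reads to GRCm38 with TopHat2 2.0.10, aligned the remaining reads with Bowtie2 in local mode and counted reads per gene with HTSeq 0.6.1 at its default options. The paper describes an RPKM table made with DEXSeq from reads adjusted for library size and gene length. The steps of the deposited RPKM values match counts scaled to a common library of 100 M reads, rounded and divided by a gene length. That form was inferred from the values. DESeq2 1.2.10, named in the submitters' processing notes, was not repeated.

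Groups came from the sample titles. The number in each title was taken as that of the mouse, which the labels do not state. Each tumor was therefore treated as a separate animal, and p-values measure the spread between these selected tumors. The fit was limma 3.58.1 (R 4.3.3) on log2(RPKM + 0.5) of 16733 genes whose RPKM averaged 0.5 or more, all 6 genes included. The 5 groups shared 1 fit with an intensity trend, with 7 contrasts and a moderated F test, and p-values were adjusted by Benjamini-Hochberg over all tested genes with a threshold of 0.05. Fold changes on this scale understate those of low genes. The fit was tested on simulated data. Ratios and correlations were tested by two-sided permutation with 100000 resamples (scipy 1.17.1), adjusted within each family of 10 ratios, 15 pairs or 6 genes.

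Read depth was recovered from the steps of the RPKM values. A gene length was found for 98.7% of tested genes, and in each tumor at least 98.2% of low values came out as whole reads. Tested on simulated data, this step recovered 98.0% of reads but only 61.6% of 3000 lengths exactly. These reads gave the library sizes and an alternative fit with limma voom. Coordinates are from GENCODE M21.

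The 6 genes and the gene lists were chosen with earlier results of these data known. All 6 genes are named in each comparison, with the 3 genes most like each in level and the gene with the smallest p of each list in the comparison of X10 and IGF1 with the rest. Other named genes were picked after their values were seen. The values of the own chromosome and the neighbours of Braf were added after the data were seen. Alternatives were other pseudocounts, filters, scalings and gene lengths, a fit of the compared groups alone, library size as a covariate, and fits without single tumors. Some other genes of the cascade are not reported here.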

Additional observations from a re-analysis of the deposited data

Results flagged for a closer look

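In 5 of the 30 combinations of gene and treatment, 1 tumor lay farther from the other 9 than Dixon's test allows at the 95% level. Chance alone gives about 1 in 20 only for normally distributed values, and the test was run on RPKM without logs. The combinations are also not independent, since Untreated_174 was flagged for both Hras and Map2k2, whose levels rose and fell together. The share of all genes flagged by this test was not computed, so the count does not set these genes apart from other genes. Hras was 111.5 RPKM in vehicle tumor Untreated_174, while the other vehicle tumors lay between 41.6 and 67.5 RPKM. Map2k2 in the same tumor was 265.6 RPKM, against 99.1 to 161.8 RPKM in the others. Hras was 83.3 RPKM in X10 tumor X10_105, against 31.6 to 49.9 RPKM in the other X10 tumors. Braf was 48.9 RPKM in glargine tumor glargine_62, against 6.81 to 18.6 RPKM, and 33.3 RPKM in insulin tumor insulin_21, against 9.98 to 16.9 RPKM. In Untreated_174, 20 of the 84 genes within 3 Mb of Hras and 21 of the 125 within 3 Mb of Map2k2 were at least 1 log2 unit above their medians, against 8.05% of all genes in that tumor. In X10_105 the count near Hras was 17 of 84, against 9.69% of all genes.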

How the results depend on the processing

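No paired analysis was possible because the groups share no numbers in their titles. None of the 6 genes passed the limma threshold in any comparison under the 14 other settings, and the smallest adjusted p was 0.146, for Hras in X10 against vehicle without X10_105. Of 588 fold changes under these settings, 563 kept their direction. The 25 that did not belong to values of at most 0.11 on the log2 scale.

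With quantile normalization the changed values were 0.046 for Mapk3 in insulin against vehicle, 0.058 for Map2k1 in X10 against vehicle, and 0.026 for Nras and 0.036 for Braf in X10 against insulin. With upper quartile scaling the same 4 values were 0.012, 0.056, 0.041 and 0.0058. With library size as a covariate Nras in glargine against vehicle was -0.048, Map2k1 in X10 against vehicle 0.035 and Mapk3 in X10 and IGF1 against the rest -0.014. Leaving out single tumors gave ranges across 0. Against vehicle, these were -0.074 to 0.036 (Map2k2) and -0.0012 to 0.081 (Mapk3) with insulin, -0.11 to 0.017 (Map2k2) and -0.039 to 0.049 (Mapk3) with glargine, -0.039 to 0.037 (Map2k1) with X10 and -0.11 to 0.0031 (Hras) with IGF1. For X10 and IGF1 against the rest they were -0.031 to 0.00072 (Map2k1) and -0.0070 to 0.029 (Mapk3), for X10 against insulin -0.035 to 0.066 (Nras) and -0.041 to 0.10 (Braf), and for glargine against insulin -0.012 to 0.031 (Hras) and -0.075 to 0.26 (Braf).

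The difference in the Hras to Nras ratio between insulin and vehicle was -0.59 as a difference in medians (adjusted permutation p = 0.0605) and -0.55 to -0.46 without single tumors. For X10 it was -0.80 to -0.53 without single tumors and -0.71 without Untreated_174 and X10_105. The Map2k1 to Map2k2 ratio in glargine against vehicle was -0.0022 to 0.14. By Pearson, the number of genes related to the ERK output score fell from 3 to 1, Nras, without the 2 tumors farthest from the median, without Untreated_174, and without Untreated_174 and X10_105. By Spearman it was 2 (Nras and Braf) over all tumors, and 0, 2 and 0 in the same settings. Hras and Map2k1 passed the threshold with quantile normalization (r = -0.47, adjusted permutation p = 0.00292) and with values centred within treatments (r = -0.34, adjusted permutation p = 0.0303), and Braf and Map2k2 did not with quantile normalization (r = -0.33, adjusted permutation p = 0.0523). Without the 2 farthest tumors Braf and Map2k1 had r = -0.0061. The r with library size was 0.087 for Braf and -0.090 for Map2k2 within treatments. For Map2k2 it was -0.0083 without the 2 farthest tumors and -0.038 with quantile normalization. Without Untreated_174 it was 0.025 for Braf and -0.025 for Map2k2, and without Untreated_174 and X10_105 it was 0.024 and -0.035. Where no value shows it, the cause was not tested.

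The number of all tested genes called in X10 and IGF1 against the rest was 26 and ranged over the settings from 11 to 110, the highest without X10_105. It was 11 (1 to 24) for X10 against vehicle, 17 (7 to 66) for X10 against insulin and 17 (0 to 55) for the F test, the last 2 also highest without X10_105.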
